A study of Mus musculus with 8 samples.

Results

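Cytosolic ribosomal proteins were followed through RNA immunoprecipitation (RIP) of the cytoplasmic polyadenylation element binding proteins CPEB4 and CPEB1 from mouse striatum. The members were all genes whose symbol on the array reads as a numbered Rpl or Rps protein, with Rplp0, Rplp1, Rplp2 and Rpsa included and with pseudogenes and S6 kinases left out. This gave 64 genes of the 17097 named on the array, 41 of the large 60S subunit and 23 of the small 40S subunit. Where a gene had several probe sets, the one with the highest mean on the 8 arrays stood for it. The rule used symbols, and no difference between fractions or pools. All but Rps15a, 63 members, had a mean above 4.23 on the log2 scale, the median over all probe sets, and entered the tests among 11345 genes. Rps15a lay between 3.45 and 4.59 on the 8 arrays and was not tested. Rpl14 lay between 3.75 and 4.94 and was tested, as its mean of 4.234 was just above the minimum. The symbols Rpl5 and Rps3 occurred only on probe sets that carry several symbols and are not among the 64.

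Each ribosome holds a single copy of nearly every ribosomal protein, and cells make these proteins in matched amounts. In mammals they do so largely at translation: most ribosomal protein mRNAs begin with a C and a run of pyrimidines, the terminal oligopyrimidine (TOP) motif, which places them under the control of mTORC1 and the RNA-binding protein LARP1. CPEB proteins bind a U-rich element in the 3′ untranslated region of their target mRNAs and set poly(A) tail length and translation. In neurons some of these mRNAs are carried into dendrites and axons. The 3′ untranslated regions of the members were not searched for this element.

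Groups were named by fraction and genotype, and each had 1 array. The fractions were the anti-CPEB4 RIP, the anti-CPEB1 RIP, the precipitate with rabbit IgG, which takes up RNA that sticks to beads and antibody, and the input, an aliquot of the same precleared lysate. Each was made from HD mice and from WT mice, all male, aged 7 to 8 months and untreated as far as the labels say. The striata were pooled by genotype (4 mice are named, without saying whether per genotype), crosslinked with formaldehyde, and the RNA was amplified over 27 cycles. The labels do not spell out HD or the strain, so HD is used here only as the name of a genotype. With 1 array a group there are no replicates within a group. The HD and the WT pool stood in for replicates in the tests. The p-values set each difference against a spread per gene that is shared by all fractions and moderated over genes. That spread measures only how evenly the fractions, also those outside the comparison, differed in the 2 pools.

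The tissue label was checked with markers of medium spiny neurons, the main neurons of striatum. In the HD input Ppp1r1b stood at 10.30, Pde10a at 11.34, Adcy5 at 11.49 and Penk at 8.30 on the log2 scale, and in the WT input they stood at 11.07, 12.20, 11.65 and 9.64. Drd1 stayed between 4.32 and 5.40 on all 8 arrays, close to the test minimum. Drd2 (5.05 in the HD and 4.56 in the WT input) and Pdyn (4.95 and 6.85) were also low. The remaining tested markers, Rgs9, Rasd2, Bcl11b and Foxp1, lay between 6.76 and 9.76 in the inputs. Other cells were also seen: Mbp of oligodendrocytes lay between 9.85 and 11.53, haemoglobin Hba-a1 between 9.70 and 12.53, and Ttr, made in choroid plexus, a structure outside striatum, between 6.60 and 11.13. Of the other oligodendrocyte genes, Mog lay between 4.39 and 6.63 and Cldn11 between 3.91 and 6.08. Mag, Mobp and Cnp reached 8.49, 10.26 and 10.69 on their highest arrays. The other 4 tested genes of the choroid plexus and ependyma list, Folr1, Kl, Foxj1 and Ccdc153, lay between 3.87 and 6.26, and the other 2 blood genes, Alas2 and Slc4a1, between 4.33 and 5.92. In such tissue samples fewer cells of a type and less RNA per cell cannot be told apart. The precipitated proteins' own mRNAs were low apart from Cpeb4 on the WT CPEB4 array (7.37, against 4.46 on the HD CPEB4 array and at most 3.76 elsewhere).

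The sequence around the annotated start of transcription shows the feature by which the family is known. The RefSeq promoter table of mouse assembly GRCm38.p6 held 50 of the 64 members. A run was counted where a C followed by at least 4 bases that are C or T began within 10 bases either side of an annotated start, on the sense strand. Of the 50 members, 30 (60%) had one, against 9297 of 27025 genes (34.4%) in the same table. The share was 56.7% in 60S members (17 of 30) and 65% in 40S members (13 of 20). The lines below give the 15 bases before and the 15 bases from the annotated start, 5′ to 3′, with the run in capitals. They show members with a long run from both subunits and those whose values the comparisons turn on.
Rps6, chr4:86857353-86857382, minus strand: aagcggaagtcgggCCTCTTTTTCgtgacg
Rps18, chr17:33955651-33955680, minus strand: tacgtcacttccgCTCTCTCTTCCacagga
Rps10, chr17:27635230-27635259, minus strand: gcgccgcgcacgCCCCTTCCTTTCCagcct
Rpl28, chr7:4792950-4792979, plus strand: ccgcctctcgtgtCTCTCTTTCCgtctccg
Rpl15, chr14:18270972-18271001, minus strand: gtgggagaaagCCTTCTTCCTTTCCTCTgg
Rpl35, chr2:39005117-39005146, minus strand: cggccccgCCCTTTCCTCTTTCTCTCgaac
Rplp2, chr7:141447636-141447665, plus strand: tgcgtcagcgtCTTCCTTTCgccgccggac
Rps19, chr7:24884898-24884927, plus strand: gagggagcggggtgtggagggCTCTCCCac
Rps28, chr17:33824548-33824577, minus strand: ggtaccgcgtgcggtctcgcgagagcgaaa
Rpl41, chr10:128549154-128549183, minus strand: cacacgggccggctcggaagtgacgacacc
In Rps6 the run began 1 base before the annotated start. Rps19 has 3 annotated starts in the table and a run at the one printed. Rps28 and Rpl41 had no run in this window, which says only that these letters are not at this annotated start.

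The members' medians lay well above the middle of the array in every fraction. The median over the 41 tested 60S members was 10.14 on the HD and 10.33 on the WT CPEB4 array, 9.78 and 10.47 on the HD and WT CPEB1 arrays, 8.63 and 9.42 on the HD and WT IgG arrays, and 10.38 and 9.13 on the HD and WT input arrays. For the 22 tested 40S members the medians were 10.51 and 10.47 in the CPEB4 RIP, 9.70 and 10.51 in the CPEB1 RIP, 8.65 and 9.75 in the IgG RIP, and 9.89 and 8.93 in the input, HD before WT each time. The median of all genes tested kept between 5.40 and 5.59 on the 8 arrays. Of the 63 members 26 had their highest value on the WT CPEB1 array, 13 on the WT CPEB4 array and 9 on the HD CPEB4 array. The lowest value fell on the HD IgG array for 26 members, on the WT input array for 20 and on the WT IgG array for 8. The HD IgG array and the WT input array thus held most of the family's low points. On these arrays 20 and 16 of the 63 members lay below 8, beside 10697 and 10575 of all 11345 genes.

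**Figure D1:**
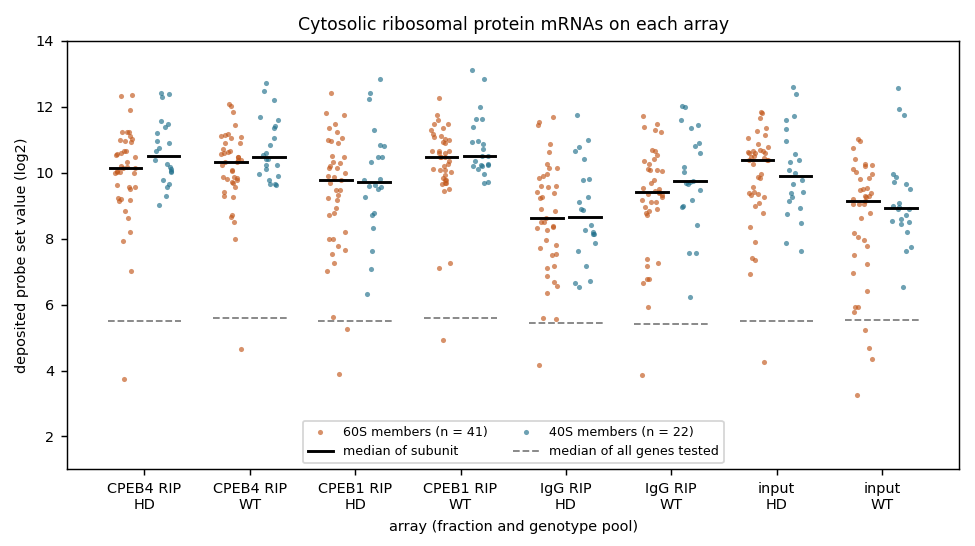
Deposited log2 value (y axis) of every tested member on each of the 8 arrays (x axis), 41 members of the 60S subunit in orange and 22 of the 40S subunit in blue, with black bars at the median of each subunit and dashed lines at the median of all 11345 genes. The 60S bars lie lowest on the HD IgG array (8.63) and next lowest on the WT input array (9.13), while the dashed lines stay between 5.40 and 5.59.

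The first question was whether the CPEB4 RIP held more ribosomal protein mRNA than the IgG RIP. Rps19, a 40S protein needed to mature the small subunit and mutated in human Diamond-Blackfan anaemia, was the member that passed the test. It had 10.02 in the HD and 10.41 in the WT CPEB4 RIP, against 7.16 in the HD and 6.22 in the WT IgG RIP. Both CPEB4 values lie above both IgG values, and the difference was 3.53 ± 0.50 on the log2 scale (SE, n = 2 pools), or 11.6-fold, with an adjusted p of 0.0411 in limma. The call was lost under cyclic loess scaling (2.52, adjusted p = 0.0716), under quantile normalization (adjusted p = 0.0892) and without either CPEB4 array, either IgG array or either input array (adjusted p between 0.0685 and 0.236). This 1 call among 63 members compares with 264 genes called higher among all 11345, or 2.33%, and 0.0441% called lower.

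The median log2 difference of the members over IgG was 1.09 (1.52 in the HD pool and 0.60 in the WT pool), against -0.06 for all genes tested, and it turned to -0.31 under cyclic loess. In the deposited values 52 of 63 members lay above IgG in both pools, beside 3836 of all 11345 genes. Both CPEB4 arrays exceeded both IgG arrays for 50 members and lay below both for 1, while 29.3% and 37% of all genes did so. At 2-fold in both pools 19 members (30.2%) were higher and 0 lower, beside 14.3% and 0.996% of all genes. At an unadjusted p under 0.05 in limma 18 members were higher and 0 lower, beside 15.7% and 7.2% of all genes.

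Among 60S members the proteins of the stalk, which recruits elongation factors to the ribosome, showed differing sizes. Rplp1 had 10.02 and 9.83 in the HD and WT CPEB4 RIP, against 7.50 and 7.27 in the HD and WT IgG RIP. The 2 pools gave nearly the same difference, 2.51 in HD and 2.56 in WT, and the fit gave 2.54 ± 0.42 with an adjusted p of 0.0539, just outside the threshold. Rplp2 had 12.35 and 12.09 against 11.43 and 10.70, a difference of 1.16 ± 0.36 (adjusted p = 0.16). Rpl7, of the body of the large subunit, had 9.14 and 9.29 in the HD and WT CPEB4 RIP, against 6.55 and 6.77 in the HD and WT IgG RIP. Its difference of 2.56 in this probe set was as even as that of Rplp1, but its standard error of 0.99, which draws on all 8 arrays, left an adjusted p of 0.213. Further probe sets of Rpl7 were less even. One gave 6.58 and 6.47 in the HD and WT CPEB4 RIP, against 5.62 and 6.19 in the IgG RIP. Another gave 7.75 and 7.85, against 4.86 and 3.49.

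Rpl27a had 10.20 and 10.46 in the HD and WT CPEB4 RIP, against 8.85 and 6.79 in the HD and WT IgG RIP. Its CPEB4 values are close and its IgG values far apart, so the difference of 2.51 ± 1.03 (adjusted p = 0.229) is mostly the WT pool's 3.67. Rpl13 had 10.33 and 10.47 against 7.53 and 8.85, a difference of 2.21 ± 0.53 (adjusted p = 0.107). At the other end Rpl41, a very short basic peptide of the 60S subunit, had 11.24 and 11.06 in the CPEB4 RIP, against 11.54 and 11.47 in the IgG RIP. It was the one member whose main probe set lay below IgG in both pools, with -0.30 in HD and -0.41 in WT (adjusted p = 0.412). A second probe set of Rpl41 gave 11.14 and 10.85 in the HD and WT CPEB4 RIP, against 10.94 and 10.99 in the IgG RIP. That probe set lay above IgG in HD and below it in WT. Rpl15, a protein of the 60S core, averaged 0.01 with the pools on opposite sides of 0. A second, weaker probe set of Rpl15 lay above IgG in both pools. It gave 5.19 and 5.76 in the HD and WT CPEB4 RIP, against 3.91 and 3.81 in the IgG RIP.

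Among 40S members Rps28, which lies near the exit of the mRNA channel, had 11.38 and 11.34 in the HD and WT CPEB4 RIP, against 6.65 and 8.98 in the HD and WT IgG RIP. It had the largest difference of the family in the deposited values, 3.54 ± 0.62 (adjusted p = 0.0589), made of 4.73 in the HD pool and 2.36 in the WT pool. A second probe set of Rps28 gave 11.70 and 11.75 in the HD and WT CPEB4 RIP, against 6.31 and 9.51 in the HD and WT IgG RIP. Rps13 had 10.17 and 10.53 against 8.26 and 7.57, a difference of 2.43 ± 0.66 (adjusted p = 0.13). The smallest differences among tested 40S members were those of Rps24 (0.45 ± 0.57) and Rps4x, the X-linked form of S4 (9.30 and 9.62 in the CPEB4 RIP, against 8.91 and 8.96 in the IgG RIP). Both turned negative under cyclic loess, to -1.14 and -0.66.

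**Figure D2:**
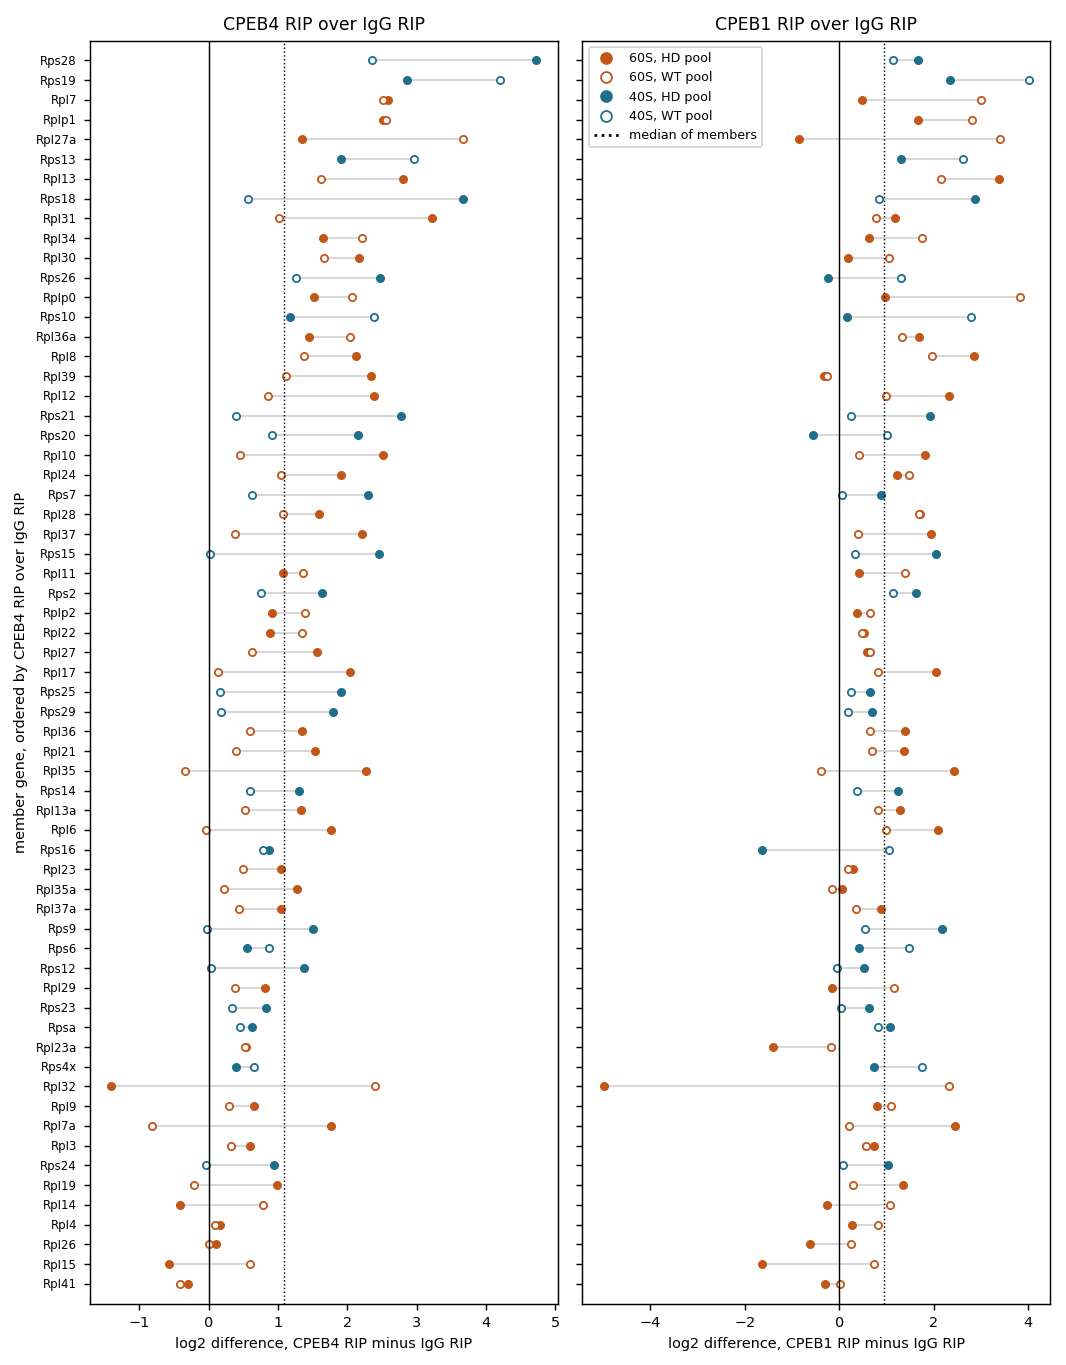
Log2 difference (x axis) of the CPEB4 RIP (left) and the CPEB1 RIP (right) over the IgG RIP for the 63 tested members (rows, ordered by CPEB4 over IgG), with filled points for the HD pool, open points for the WT pool, orange for 60S, blue for 40S and dotted lines at the members' medians of 1.09 and 0.96 in the deposited values, which became -0.31 and 0.01 under cyclic loess. Rplp1 and Rpl7 have nearly coinciding points on the left, and Rpl32 has the widest pair on the right, from -4.99 in HD to 2.33 in WT.

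The CPEB1 RIP was compared with the same 2 IgG arrays, so the comparisons of both antibodies share them. No member passed, as no gene on the array did (0% of 11345 in either direction by limma), and at an unadjusted p under 0.05 there were 13 members higher and 0 lower, beside 6.37% and 0.996% of all genes. The members' median was 0.96 (0.88 in HD and 0.83 in WT), against 0.09 for all genes, and it shrank to 0.01 under cyclic loess. Above IgG in both pools lay 48 of 63 members, beside 4056 of all 11345 genes. Both CPEB1 arrays exceeded both IgG arrays for 32 members and lay below both for 0, beside 24.6% and 12.5% of all genes, and 10 members were 2-fold higher in both pools and 0 lower, beside 4.48% and 0.458%.

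Rps19 again had the largest difference among members, with 9.51 and 10.24 in the HD and WT CPEB1 RIP, against 7.16 and 6.22 in the HD and WT IgG RIP (3.19 ± 0.50, adjusted p = 0.178). Rpl13 had 10.90 and 11.00 in the CPEB1 RIP, against 7.53 and 8.85 in the IgG RIP, and Rpl8 had 11.35 and 11.29 against 8.49 and 9.33. For these members the CPEB1 values were close and the groups did not overlap, with differences of 2.76 ± 0.53 (adjusted p = 0.247) and 2.41 ± 0.47 (adjusted p = 0.252). Rplp1 followed with 2.24 ± 0.42, and Rps13 with 1.96 ± 0.66. Rplp0, the stalk protein that carries Rplp1 and Rplp2, had 7.64 in the HD and 10.47 in the WT CPEB1 RIP, against 6.67 and 6.64 in the IgG RIP, so its mean difference of 2.40 ± 1.18 is 0.97 in HD and 3.83 in WT.

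Rpl32, often used as a reference transcript, had 5.63 in the HD and 9.49 in the WT CPEB1 RIP, against 10.62 in the HD and 7.16 in the WT IgG RIP. The HD CPEB1 value is the lowest and the HD IgG value the highest of its 8 arrays, and the pools gave -4.99 and 2.33. Rpl23a, a protein at the exit of the nascent chain, had 8.73 and 10.47 in the CPEB1 RIP, against 10.13 and 10.65 in the IgG RIP. Its pool differences of -1.40 and -0.18 lay below IgG (adjusted p = 0.917). Rps16 and Rps20 of the 40S subunit also had their low value on the HD CPEB1 array, 7.62 and 7.07, against 10.51 and 10.20 on the WT CPEB1 array.

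Set directly against each other, the CPEB1 and CPEB4 RIPs gave the members a median difference of -0.24 (CPEB1 minus CPEB4: -0.54 in HD and 0.12 in WT), while all genes had 0.21, and the members' median became 0.16 under cyclic loess and 0.05 under quantile normalization. No member passed the test in limma, beside 0% of all genes higher and 0.141% lower. Both CPEB1 arrays lay above both CPEB4 arrays for 10 members and below both for 14, beside 37% and 18.6% of all genes, and 0 members were 2-fold higher in both pools (0.74% of all genes) and 2 lower (7.82%). At an unadjusted p under 0.05 there were 0 members higher (5.92% of all genes) and 1 lower (9.41%), Rps28, with 8.31 and 10.12 in the HD and WT CPEB1 RIP, against 11.38 and 11.34 in the HD and WT CPEB4 RIP. Its difference was -2.15 ± 0.62 (adjusted p = 0.247), lower in both pools. Rpl39, a tunnel-wall protein, had 5.27 and 7.12 in the CPEB1 RIP, against 7.94 and 8.49 in the CPEB4 RIP, also lower in both pools (-2.02 ± 1.66). A second, weaker probe set of Rpl39 gave 4.68 and 5.02, against 5.13 and 4.94, and so was lower in HD only. Rps26, which contacts mRNA upstream of the start codon, had 6.32 in the HD and 9.70 in the WT CPEB1 RIP, against 9.01 and 9.66 in the CPEB4 RIP.

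In the other direction the differences were small. Rpl7a had 9.32 and 9.70 in the HD and WT CPEB1 RIP, against 8.62 and 8.66 in the HD and WT CPEB4 RIP (0.87 ± 0.76, adjusted p = 0.528). Rpl8 had 0.66 ± 0.47, Rpl6 0.68 ± 0.74, Rps9 0.62 ± 0.54 and Rps4x 0.72 ± 0.68, each with a positive value in both pools and none past the test. Rpsa, which also serves as a laminin receptor, had 12.83 and 12.85 against 12.37 and 12.48.

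Against input the result depended on the pool. Over input the CPEB4 RIP had a members' median of 0.91, but 0.10 in HD and 1.39 in WT, and the median turned to -0.11 under cyclic loess. For the CPEB1 RIP it was 0.58, with -0.26 in HD and 1.43 in WT (0.06 under cyclic loess), and for the IgG RIP it was -0.30, with -1.32 in HD and 0.58 in WT (-0.08 under cyclic loess). All genes had medians of -0.15, -0.01 and -0.11. No member passed the test in these 3 comparisons, beside 1.34%, 0.0176% and 0.0176% of all genes called higher and 0.0176%, 0% and 0.00881% called lower, CPEB4, CPEB1 and IgG in that order. At an unadjusted p under 0.05 in limma 11 members were higher in the CPEB4 RIP than in input (13.2% of all genes), 8 in the CPEB1 RIP (5.42%) and 3 in the IgG RIP (3.15%), and 0, 0 and 10 were lower (12.9%, 2.65% and 6.6%). At 2-fold in both pools 11 members were higher in CPEB4 over input, 4 in CPEB1 over input and 2 in IgG over input, beside 11.9%, 3.49% and 1.67% of all genes. In the same comparisons 0, 0 and 7 members were 2-fold lower in both pools, beside 1.79%, 1.18% and 3.34%. Without overlap of the arrays 36 members lay above and 4 below input in the CPEB4 RIP (25.7% and 39.1% of all genes), 21 and 3 in the CPEB1 RIP (17.6% and 18.7%), and 9 and 18 in the IgG RIP (16.6% and 30%).

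The 60S members with the largest differences between the CPEB4 RIP and input had low values on the WT input array. Rpl30, which in Saccharomyces cerevisiae binds its own transcript, had 9.98 and 10.37 in the HD and WT CPEB4 RIP, against 8.77 in the HD and 4.68 in the WT input. Rpl12, at the base of the stalk, had 11.01 and 10.91 in the CPEB4 RIP, against 10.63 and 5.22 in the input. Rpl9 had 10.93 and 10.66 in the CPEB4 RIP, 11.06 and 11.46 in the CPEB1 RIP and 10.27 and 10.36 in the IgG RIP, against 9.07 and 6.40 in the input. All 3 precipitates of Rpl9, the IgG control among them, lay above both inputs, by 3.06 ± 0.78, 3.53 ± 0.78 and 2.58 ± 0.78 (adjusted p = 0.114, 0.29 and 0.45).

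Among 40S members Rps7 had close differences in both pools (2.24 in HD and 2.46 in WT), with 11.19 and 11.42 in the CPEB4 RIP, against 8.94 and 8.96 in the input (2.35 ± 0.52, adjusted p = 0.0949). Rps19 had 8.47 and 7.74 in the input and so exceeded it by 2.11 ± 0.50 in the CPEB4 RIP (adjusted p = 0.103), while IgG minus input was -1.42. Rps6, the 40S protein phosphorylated downstream of mTORC1 and read as a marker of neuronal activity, had 10.95 and 11.05 in the CPEB4 RIP, 10.80 and 11.64 in the CPEB1 RIP and 10.40 and 10.17 in the IgG RIP, against 7.63 in the HD and 9.50 in the WT input. Its second probe set had the inputs the other way round, 7.23 in HD and 4.57 in WT, so the input level of Rps6 is uncertain. Rps14 and Rps23, a protein of the decoding centre, also lay above input on average in all 3 precipitates. Rps23 had 11.48 and 11.69 in the CPEB4 RIP, 11.29 and 11.39 in the CPEB1 RIP and 10.65 and 11.36 in the IgG RIP, against 10.07 and 9.00 in the input.

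Below input lay Rpl29 (9.17 and 9.82 in the HD and WT CPEB4 RIP, against 10.65 and 10.74 in the HD and WT input), with -1.48 in HD and -0.92 in WT. The main probe sets of Rps12 and Rps29 also lay below input in both pools for both antibodies. Their mean differences were between -0.87 and -0.14 in the deposited values, and neither passed the test. A second probe set of Rps29 lay above input in both pools in the CPEB4 RIP (11.14 and 11.18, against 11.01 and 11.03). In the CPEB1 RIP it had 9.47 in HD, below input, and 11.26 in WT, above input. Rplp0 had 8.19 and 8.71 in the CPEB4 RIP, 7.64 and 10.47 in the CPEB1 RIP and 6.67 and 6.64 in the IgG RIP, against 10.50 and 8.04 in the input. It gave the lowest IgG difference of the family, -2.61 ± 1.18 (adjusted p = 0.563), followed by Rpl13 with -2.44 ± 0.53 (adjusted p = 0.323). The lowest 40S member was Rps28 with -1.79 ± 0.62.

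Medians for 60S and 40S members were 1.09 and 1.11 for CPEB4 over IgG, 0.98 and 0.95 for CPEB1 over IgG, and -0.13 and -0.32 for CPEB1 over CPEB4. Over input they were 0.67 and 0.94 for CPEB4, 0.46 and 0.65 for CPEB1, and -0.26 and -0.48 for IgG. The 60S minus 40S difference of medians lay between -0.27 and 0.22 over the 6 comparisons, while the HD and WT medians of all members differed by more than that in 5 of them. Under cyclic loess the sign of the subunit medians over IgG for CPEB4 turned with that of the family. Members are not replicates of a condition, so no test was made between the subunits. The members with and without the pyrimidine run were likewise close, with medians of 1.16 (n = 29) and 1.07 (n = 20) for CPEB4 over IgG and 1.02 and 0.95 for CPEB1 over IgG.

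**Figure D3:**
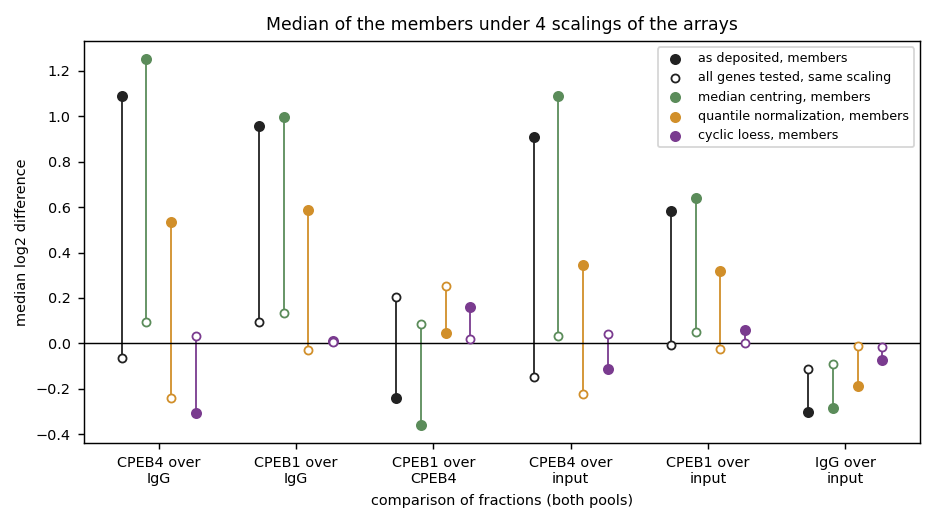
Median log2 difference (y axis) of the 63 members (filled points) and of all genes tested (open points) in the 6 comparisons of fractions (x axis), with the values as deposited and after median centring, quantile normalization and cyclic loess. For CPEB4 over IgG the members stand 1.16 above all genes as deposited, 0.78 above them after quantile normalization and at -0.34 relative to them after cyclic loess.

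How far the members stood from all genes depended on the scaling of the arrays and on the signal filter. For CPEB4 over IgG the members' median exceeded that of all genes by 1.16 in the deposited values and after median centring, and by 0.78 after quantile normalization, but members minus all genes was -0.34 after cyclic loess, which removes differences between arrays that vary along the signal range. For CPEB1 over IgG the excess was 0.86, 0.86, 0.62 and 0.01 in the same order. With the filter raised to the 75th percentile of probe set means, 6417 genes remained. Their median for CPEB4 over IgG was 0.34, and the members' excess over it was 0.76. For CPEB4 over input the excess was 1.06 with the main filter and 0.76 with this one. The median of all genes itself moved with scaling by up to 0.19, for cyclic loess in CPEB4 over input. Without probe sets of the x and s types, whose probes can match several transcripts, 52 members remained and their median for CPEB4 over IgG was 0.93. Other probe sets of the members above the test minimum numbered 44. Of these 38 had the sign of the gene's main probe set for CPEB4 over IgG, 38 for CPEB1 over IgG and 35 for CPEB1 over CPEB4. Over input the sign was shared by fewer, 27 for CPEB4, 29 for CPEB1 and 28 for IgG.

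The HD and WT pools were compared within each fraction from 1 array each, with no test. In the CPEB4 RIP the members differed little between the pools. Their HD minus WT median was -0.09, and the range was -0.96 to 0.32, so that 0 members differed 2-fold in either direction, beside 4.55% of all genes higher and 11.6% lower in HD. The SD of the HD minus WT difference over members was 0.31 in the CPEB4 RIP, against 0.79 over all genes. Within 0.5 lay 54 of 63 members, beside 7038 of all 11345 genes. In the other fractions the SD over members was 0.99 (CPEB1), 1.20 (IgG) and 1.25 (input), against 0.98, 0.91 and 0.93 over all genes.

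In the CPEB1 RIP the HD minus WT median was -0.70 in the deposited values and 0.24 under cyclic loess. As deposited, 23 members were at least 2-fold lower in HD and 0 higher, beside 17.9% of all genes lower and 3.34% higher. The largest differences were those of Rpl32 (5.63 in HD, against 9.49 in WT), Rps26 (6.32 in HD, against 9.70 in WT) and Rps20 (7.07 in HD, against 10.20 in WT). Medium spiny neuron markers were lower on the same HD array (median HD minus WT of -1.30 over 11 markers), as they were in the CPEB4 RIP (-1.10) and in the IgG RIP (-1.79). All 7 astrocyte markers were lower in HD in the CPEB1 RIP (median -0.92). Mitochondrial ribosomal proteins had a median of -0.69 there, close to that of the members, with 25 of 68 at least 2-fold lower and 1 higher. The part of these cell markers in the result was not tested.

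In the IgG RIP the median was -0.83 (0.19 under cyclic loess), with 26 members at least 2-fold lower in HD and 3 higher, beside 10% and 5.32% of all genes. Rpl31 (6.34 in HD, against 9.35 in WT), Rps18 (6.71 in HD, against 9.66 in WT) and Rpl35 (7.72 in HD, against 10.40 in WT) had the lowest differences. Rpl32 (10.62 in HD, against 7.16 in WT), Rpl27a (8.85 in HD, against 6.79 in WT) and Rps10 (9.10 in HD, against 7.56 in WT) were the 3 higher. A second probe set of Rps10, with nearly the same mean over the arrays, gave 8.84 in HD and 9.10 in WT. With its probe sets averaged the Rps10 difference was 0.54. Mitochondrial ribosomal proteins had a median of 0.05 there, with 8 higher and 10 lower at 2-fold. Oligodendrocyte markers had a median of -1.17, and their part in the result was not tested. The 40S members had a median of -1.35 and the 60S members -0.78.

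In the input the sign was the opposite: the HD minus WT median was 1.02, and 0.14 under cyclic loess. At least 2-fold higher in HD were 34 members and lower 2, beside 11.3% and 4.43% of all genes. Rpl12 had 10.63 in the HD input, against 5.22 in the WT input, Rpl39 7.91 against 3.25, and Rpl30 8.77 against 4.68. The WT input value of Rpl39 lies below the test minimum of 4.23, and its second probe set gave 5.30 in HD and 5.14 in WT. Rps6 (7.63 in HD, against 9.50 in WT) and Rps16 (7.88 in HD, against 8.89 in WT) were the 2 lower. The median was 1.09 for 60S and 0.66 for 40S members.

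Other mRNAs known for a pyrimidine start were also read in the input. Among 21 tested translation factors and TOP mRNAs 10 were at least 2-fold higher in the HD than in the WT input and 0 lower. The shares of all genes were 11.3% and 4.43%. The list's median was 0.35, against 1.02 for the members, and 5 of the 21 lay below 0. Among the 10 were the elongation factor Eef1a1 (11.48 in HD, against 9.04 in WT), the nucleolar chaperone Npm1 (8.32 in HD, against 6.27 in WT) and Naca (9.34 in HD, against 6.79 in WT). Mitochondrial ribosomal proteins, with 68 tested, had a median of 0.04 there, and 12 were higher and 2 lower at 2-fold. Medium spiny neuron markers had a median of -0.16 in the input, and the choroid plexus and ependyma list 0.06, with Ttr at 10.49 in HD, against 6.60 in WT; their part was not tested. With 1 array each, a difference between the HD and the WT mice and one between 2 amplified RNA samples cannot be told apart.

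**Figure D4:**
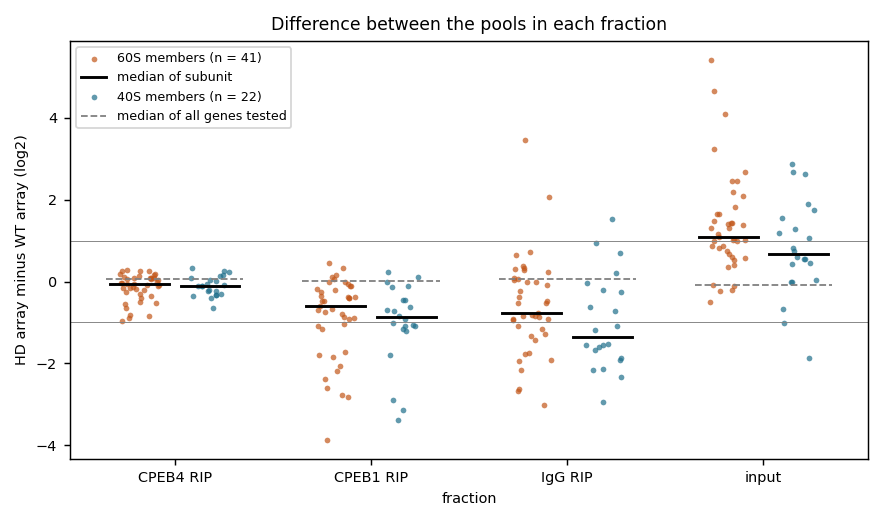
HD minus WT log2 difference (y axis) of every tested member in the 4 fractions (x axis), with 60S in orange, 40S in blue, black bars at the subunit medians, dashed lines at the median of all genes and thin lines at 2-fold. CPEB4 points lie between -0.96 and 0.32, while the members' medians in the CPEB1 RIP, the IgG RIP and the input are -0.70, -0.83 and 1.02 in the deposited values and 0.24, 0.19 and 0.14 under cyclic loess.

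The enrichment of members over IgG was larger in HD by a median of 0.71 for CPEB4, which became -0.21 under cyclic loess. In the CPEB4 RIP itself the members' HD minus WT median was -0.09, and in the IgG RIP it was -0.83. The 0.71 thus goes with lower HD values in the IgG RIP, not with higher HD values in the CPEB4 RIP. For CPEB1 the median difference of the enrichment was 0.16, and -0.26 without x and s probe sets.

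Ribosomal protein genes outside the symbol rule, such as Fau and Rps3a1, and genes that work with the ribosomal proteins were taken from fixed lists. These held 14 paralogues and fusion genes, 23 translation factors and other TOP mRNAs, and 56 ribosome biogenesis factors, of which 6, 21 and 44 were tested. For CPEB4 over IgG their medians were 0.58, 1.05 and 0.42, that of mitochondrial ribosomal proteins was 0.26, and that of all genes was -0.06. One gene of these lists passed there. Pabpc1, the cytoplasmic poly(A) binding protein and itself encoded by a TOP mRNA, had 8.17 and 9.29 in the HD and WT CPEB4 RIP, against 4.66 and 4.83 in the HD and WT IgG RIP, and rose by 3.98 ± 0.33 (adjusted p = 0.0259 in limma). It was also higher than in input (5.20 in HD and 5.62 in WT), by 3.32 (adjusted p = 0.0382). With its probe sets averaged Pabpc1 had 1.84 over IgG (adjusted p = 0.0333) and 1.41 over input, where the call was lost (adjusted p = 0.0529). Over IgG the call was also lost under quantile normalization (3.41, adjusted p = 0.0556), in a fit of only the 4 arrays compared (adjusted p = 0.0838) and without either CPEB4, either IgG or either input array (adjusted p between 0.0593 and 0.209). Over input it was also lost under quantile normalization (adjusted p = 0.065), with the 75th percentile filter, with only the 4 arrays, and whichever of the 8 arrays was left out (adjusted p between 0.0542 and 0.239).

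Of the biogenesis factors, Gar1, a protein of the snoRNPs that modify ribosomal RNA, was higher in the CPEB4 RIP (9.19 and 9.03) than in the input (5.91 and 6.36), by 2.97 (adjusted p = 0.0416), a call lost under cyclic loess (adjusted p = 0.0612), quantile normalization (adjusted p = 0.109), trended robust eBayes, the 75th percentile filter, a fit of only the 4 arrays (adjusted p between 0.0528 and 0.0593 in these 3) and whichever of the 8 arrays was left out (adjusted p between 0.0644 and 0.245). Over IgG it had 2.17 ± 0.38 (adjusted p = 0.059). The largest differences over IgG in these lists were those of Eif2s3x (5.51 ± 1.48, adjusted p = 0.129) and Nop10, a partner of Gar1 (4.09 ± 0.98, adjusted p = 0.107). Riok2, a kinase of 40S maturation, had 3.28 ± 0.61 (adjusted p = 0.0671), the paralogue Rpl36al 2.93 ± 1.08 (adjusted p = 0.201) and Rps27l 1.61 ± 0.39 (adjusted p = 0.108). For CPEB1 over IgG no gene of the lists passed, and Pabpc1 had 3.75 ± 0.33 (adjusted p = 0.121).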

How the data were processed

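RNA from the CPEB4, CPEB1 and IgG precipitates and from input was hybridised to 8 Affymetrix mouse arrays. The deposited log2 values are probe set summaries that the authors made with RMA (background correction, normalization and summary of probes), per the submitters' processing notes. Neither the RMA version nor a joint run of all 8 arrays is stated there. They were used with no further scaling.

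Of 45101 probe sets, 28898 carry 1 gene symbol in the platform annotation, 551 several and 15652 none. Symbols of 28689 matched the RefSeq gene table of GRCm38.p6, the source of the promoter sequences (no build is stated for the annotation of the array). Each of the 17097 genes was read from its probe set with the highest mean, and the 11345 with a mean above 4.23 were tested with limma 3.58.1 in R 4.3.3 by linear models with moderated variances (two-sided, Benjamini-Hochberg over all genes tested, called under 0.05). Fraction and genotype pool were the terms, fitted over all 8 arrays, with 3 residual degrees of freedom and 2.29 from the prior. The SE shares 1 estimate of spread per gene over all fractions, and a difference specific to 1 pool counts as error. The number of arrays limits the precision. The model was tested on simulated arrays with known changes.

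The members and lists were chosen with earlier results of these data known. Named members were those past the test, in each subunit the 3 farthest above and the 2 farthest below the members' median, and the 3 farthest each way among those at 2-fold for HD minus WT; of each other list, the genes past the test and the 2 of largest absolute difference for CPEB4 over IgG. Rplp2, the further probe sets and the list genes named for their input values were added after their values were seen. Alternatives were the filter, the probe set per gene, the scaling, the pool as a block, the variance model, the arrays in the fit, each array left out, and fold thresholds of 1.5 and 3; those for HD minus WT of the enrichment over IgG and for Pabpc1 and Gar1 were added after seeing the data. Protein sequences were not used here, so the protein features that had been planned are not reported.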

Additional observations from a re-analysis of the deposited data

Results flagged for a closer look

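In the results below the HD and the WT pool lay on opposite sides of 0 in the same comparison of fractions. Each rests on 1 array per fraction and pool, and the difference was not tested. Values are log2 differences, and the HD minus WT difference follows them.

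Summaries of the whole family fell on both sides. The members' median for CPEB1 minus CPEB4 was -0.54 in HD and 0.12 in WT, a difference of -0.66. For CPEB1 over input it was -0.26 in HD and 1.43 in WT (-1.68), and for IgG over input -1.32 in HD and 0.58 in WT (-1.90). On the WT input array 20 of 63 members had their lowest value, and on the HD IgG array 26 had theirs. The 60S minus 40S median for CPEB4 over input was 0.08 in HD and -0.14 in WT (0.22), and for IgG over input 0.24 in HD and -0.19 in WT (0.42).

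Among 60S members Rpl32 gave the widest pair, -4.99 in HD and 2.33 in WT for CPEB1 over IgG, which is -7.32. Rpl15 had -0.57 in HD and 0.60 in WT for CPEB4 over IgG (-1.17). Rplp0, the scaffold of the stalk, had -2.31 in HD and 0.67 in WT for CPEB4 over input (-2.98). Rpl27a had -2.37 in HD and 1.14 in WT for CPEB1 over input (-3.51).

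Among 40S members Rps24 had 0.95 in HD and -0.04 in WT for CPEB4 over IgG (0.99). Rps16 and Rps20 had -1.63 and -0.55 in HD, against 1.06 and 1.02 in WT, for CPEB1 over IgG, which are differences of -2.69 and -1.57. Rps26 had -2.70 in HD and 0.04 in WT for CPEB1 minus CPEB4 (-2.74). Rps14 had -0.60 in HD and 2.70 in WT for IgG over input (-3.30).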

How the results depend on the processing

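Under cyclic loess the members' median was -0.31 for CPEB4 over IgG, 0.012 for CPEB1 over IgG, 0.16 for CPEB1 over CPEB4 and -0.11 for CPEB4 over input. Quantile normalization gave 0.59 for CPEB1 over IgG and 0.048 for CPEB1 over CPEB4. Median centring gave 0.999 for CPEB1 over IgG, and averaging all probe sets of each gene gave 0.66. The 60S minus 40S median for CPEB4 over IgG was -0.30 without x and s probe sets and -0.24 under quantile normalization. Without x and s probe sets it was -0.16 for CPEB1 over IgG and -0.0078 for CPEB4 over input. The cause was not tested.

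Members past the test for CPEB4 over IgG, 1 in the deposited values, numbered 0 with no filter, under cyclic loess, quantile normalization or trended robust eBayes, and in a fit of only the 4 arrays compared. They numbered 2 with no genotype block and 3 with averaged probe sets, Rplp1 among them in both (adjusted p = 0.0304 and 0.0467 in limma). For CPEB4 over input 1 member passed under cyclic loess and 1 without x and s probe sets. Genes called higher over all, 264 for CPEB4 over IgG and 152 for CPEB4 over input, numbered 133 and 9 with the 75th percentile filter, 8 and 2 under quantile normalization, and 0 and 0 with only the 4 arrays; the second numbered 283 under cyclic loess. Genes called higher and lower for IgG over input, 2 and 1, numbered 4 and 5 under cyclic loess. The fit pairs the fractions by genotype pool, the only pairing in the labels.

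Single members turned as well. For CPEB4 over IgG, cyclic loess and quantile normalization gave -1.06 and -0.90 for Rpl15, -1.14 and -0.047 for Rps24 and -0.66 and -0.45 for Rps4x, and Rps24 had -0.61 without x and s probe sets. For CPEB1 over IgG they gave Rps20 -0.52 and -0.30. Rps29 for CPEB4 over input was 0.036 under median centring. For IgG over input Rps28 was 0.10 without x and s probe sets, and Rps6 was -0.038 with averaged probe sets, which also made its HD minus WT input difference 0.22.

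Leaving out 1 array put the members' median between 0.46 and 1.61 for CPEB4 over IgG and between 0.43 and 1.32 for CPEB1 over IgG, between -0.58 and 0.29 for CPEB1 over CPEB4, and over input between -0.046 and 1.63 for CPEB4, -0.18 and 1.27 for CPEB1 and -1.28 and 0.48 for IgG. The 60S minus 40S median spanned -0.38 to -0.020, 0.0092 to 0.34 and 0.04 to 0.19 in the first 3 comparisons, and -0.35 to 0.012, -0.31 to 0.05 and -0.29 to 0.39 over input. Members past the test numbered 0 to 2 for CPEB4 over IgG and 0 in the other comparisons. For CPEB4 over IgG Rpl15 spanned -0.38 to 0.41 and Rps24 -0.26 to 1.17. For CPEB1 over IgG Rpl23a spanned -1.79 to 0.21, Rpl32 -4.01 to 1.35, Rps16 -1.51 to 0.94 and Rps20 -1.27 to 1.74. For CPEB1 over CPEB4 Rpl32 spanned -4.51 to 0.86, Rps26 -3.08 to 0.42 and Rps4x -0.055 to 1.49. Over input Rplp0 spanned -2.60 to 0.96, Rps12 -1.10 to 0.27 and Rps29 -0.61 to 0.32 for CPEB4, Rpl27a -2.23 to 0.997 for CPEB1 and Rps14 -0.34 to 2.44 for IgG.

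HD minus WT in the CPEB4 RIP had a median of 0.078 under cyclic loess, 0 under quantile normalization, -0.15 under median centring and -0.037 with averaged probe sets. There 1 member was 2-fold lower under cyclic loess and 1 under median centring, and 6 were lower at 1.5-fold. In the CPEB1 RIP the median was 0.24 under cyclic loess, with 14 members higher and 13 lower, and -0.034 under quantile normalization, with 1 higher and 12 lower. At 1.5-fold 36 were lower and at 3-fold 14. In the IgG RIP the median was 0.19 under cyclic loess (13 higher, 12 lower), -0.35 under quantile normalization (6 and 15) and -0.18 without x and s probe sets (5 and 15). At 1.5-fold 7 were higher and at 3-fold 16 lower. In the input the median was 0.14 under cyclic loess (16 higher, 7 lower) and 0.55 under quantile normalization (19 and 4). There 1 was lower with averaged probe sets, without x and s probe sets, under median centring or at 3-fold, where 17 were higher. HD minus WT of CPEB4 over IgG was 0.43 with averaged probe sets, 0.29 without x and s probe sets, -0.21 under cyclic loess and 0.26 under quantile normalization. For CPEB1 over IgG it was -0.021, -0.26 and, under median centring, 0.091.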
